A study of Dicosmoecus gilvipes with 20 samples.

Results

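Thorax RNA of *Dicosmoecus gilvipes*, a stream caddisfly, was compared between larvae held at 25°C and larvae held at 20°C. This is the middle step of a laboratory warming series of 4 temperatures (15.5, 20, 25 and 28.6°C), and it rests on 10 of the 20 RNA-seq libraries of that series, the 5 labelled 25°C and the 5 labelled 20°C. All larvae were wild animals in the fifth and last larval instar, taken from a single stretch of river, kept together in cool water in the laboratory, warmed over several days and held at the final temperature for a day. Equal amounts of RNA of the same larvae entered each of the 5 pooled samples of a temperature, so the p-values below measure the spread between libraries of those pools and not between animals, and a change in every larva cannot be told apart from a large change in a few. Transcripts come from an assembly without a reference genome, in which a contig is an assembled sequence and a subcomponent is the group of contigs that the assembler placed together, usually variants of a gene. Here the estimated read counts were summed per subcomponent, and the contigs were tested as well.

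In the last instar an insect larva feeds heavily and builds up stores for the pupa, which does not feed. The fat body, an organ with roles like those of liver and fat tissue, releases storage proteins named hexamerins into the blood and draws on them again during metamorphosis. Juvenile hormone and ecdysone time these events, the gut secretes proteases, lipases and amylases, and heat shock proteins, the chaperones that keep other proteins folded, are made in larger amounts when cells are warmed towards damaging temperatures.

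The files held between 7996705 and 12192283 estimated counts per library at 20°C and between 6756103 and 9621568 at 25°C. A ribosomal-like subcomponent (comp65386_c0) accounted for 45.0% of replicate 1 and 77.0% of replicate 4 at 20°C, against 0.513% to 1.13% in the other libraries of 20°C and 0.490% to 1.93% at 25°C. It was left out, which leaves 5484995 and 2485595 counts in those replicates, and results that rest on them are given without them too. Libraries also fell into a set of shorter reads and a set of longer reads, as the deposited run parameters show. At 20°C all replicates but replicate 3 belonged to the shorter set, and at 25°C only replicate 1 did, so read length and temperature can be separated only through those libraries. The thorax was dissected to favour muscle over gut, and named markers of both were present. Summed muscle markers (3 subcomponents) stood between 306.2 and 428.5 CPM at 20°C and between 173 and 205.6 CPM at 25°C. Here CPM is the count relative to a library's TMM-scaled total without the ribosomal-like reads, as edgeR's cpm function gives it. The highest sums at 20°C were those of replicates 1 and 4 (382.9 and 428.5 CPM). In 1 of the 3 markers less than 50% of the counts lay in contigs with a protein name. A more abundant troponin subcomponent outside these markers (comp62634_c1) rose from a mean of 3161 to 3882 CPM. Summed gut digestive markers (29 subcomponents) stood between 27130 and 32890 CPM at 20°C and between 10770 and 13010 CPM at 25°C. In 2 of the 29, less than 50% of the counts lay in contigs with a name. For the alpha-amylase comp57321_c0 among them it was 0%. No subcomponent carried the name of a silk gland marker.

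Of 15220 subcomponents tested, 61 were higher at 25°C (0.401% of those tested) and 126 were lower (0.828%), by the quasi-likelihood test of edgeR at a Benjamini-Hochberg adjusted p below 0.05 and a fold change of at least 4 in either direction. The adjusted p alone was passed by 3255 that were higher (21.4%) and 3627 that were lower (23.8%), most of them by small amounts. The middle of the distribution hardly moved, with a median log2 fold change of -0.006 and quartiles of -0.292 and 0.266. The last subcomponents inside the fold criterion had log2 fold changes of 2.003 and -2.015, and the first outside it had 1.997 and -1.997. When scaling used library size alone, the median log2 fold change of all subcomponents was 0.354 and the counts were 91 higher and 91 lower, so the excess of lower subcomponents was not seen with that scaling. Directions below are those of TMM scaling, and of the lists described below, the medians of transporters (0.01), amino acid metabolism (0.11) and transposons and retroelements (0.08) turned sign with library size alone.

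The called subcomponents had a peaked pattern over the series. Among the 126 that were lower at 25°C, 107 (84.9%) had their highest mean of the 4 temperatures at 20°C, against 22.1% of all tested subcomponents. For the 89 of them whose libraries did not overlap, the number was 71 (79.8%). Among the 61 that were higher, 41 (67.2%) had their highest mean at 25°C, against 18% of all tested, and 17 (27.9%) had it at 28.6°C. Part of the pattern follows from the rule, since a subcomponent that is lower at 25°C cannot peak there. For all 61 of the higher subcomponents the 5 libraries of 25°C lay above the 5 of 20°C, where 14.8% of all tested subcomponents did so. For 89 of the 126 lower subcomponents the groups were apart in the other direction, which 16% of all tested did.

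The other 37 lower subcomponents rested on replicates 1 and 4 of 20°C. In all 37, both of these libraries stood above replicates 2, 3 and 5, and the mean of replicates 2, 3 and 5 was within 4-fold of the 25°C mean. Their median level was 34.52 CPM in replicate 1 and 127.7 CPM in replicate 4. It was 1.162, 1.135 and 0.7175 CPM in replicates 2, 3 and 5, and the median of their means at 25°C was 0.8275 CPM. These are the libraries with 45.0% and 77.0% ribosomal-like counts, and the part of those reads in the result was not tested. With both libraries left out, 72 subcomponents were lower and 61 higher, of which 70 and 57 were among the 126 and 61. More than the 37 thus lost the lower call, and losses to the filter and to the criteria were not counted apart. Outside the 37, comp55901_c1, which has no protein name and whose groups did not overlap, had the same pattern. It stood at 23.62, 0.5166, 0.6484, 114.5 and 0.82 CPM in replicates 1 to 5 of 20°C. At 25°C it stood at 0.3079, 0.2865, 0.243, 0.2483 and 0 CPM, and only replicates 1 and 4 set the temperatures far apart. It was among the most strongly lowered by the test (log2 fold change -5.49, SE 1.09, adjusted p = 0.00011) and fell under the filter on low counts without those libraries.

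**Figure D1:**
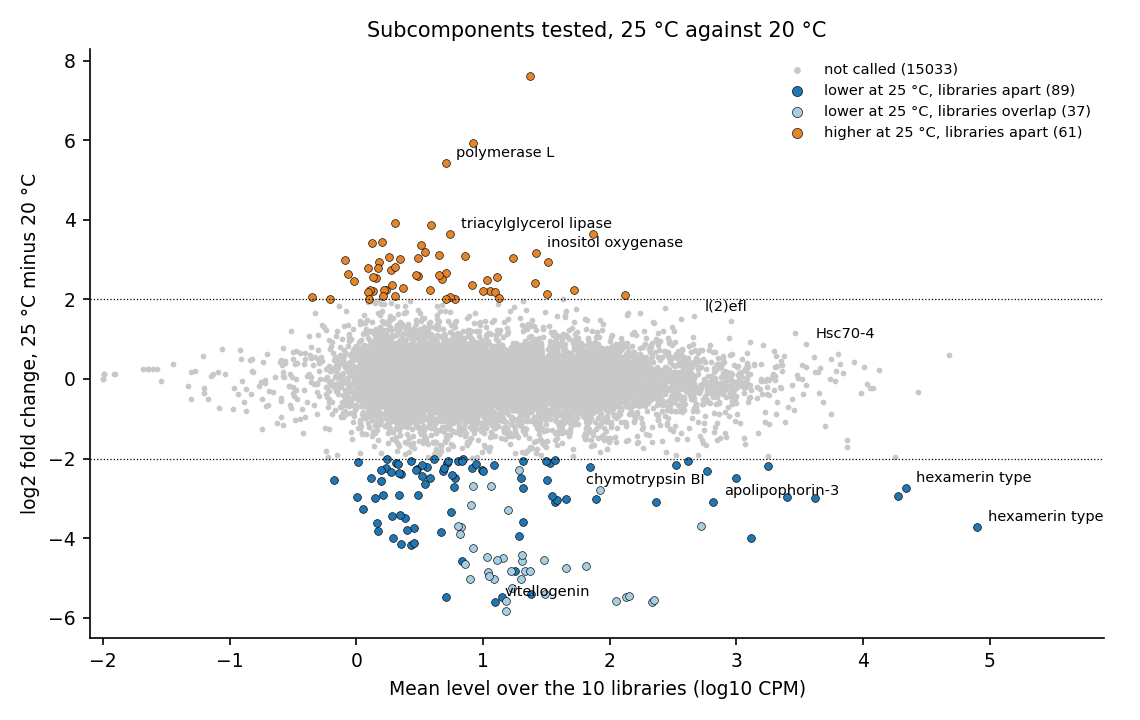
Each point is 1 of the 15220 subcomponents tested, with its mean level over the 10 libraries on the x axis (log10 CPM) and its log2 fold change, 25°C minus 20°C, on the y axis, and dotted lines at the fold criterion. Orange points were higher at 25°C (61), dark blue points were lower with no overlap between libraries (89) and pale blue points were lower with overlapping libraries (37). The points furthest to the right among the lower ones are the most abundant hexamerin-type subcomponents (comp64679_c1 and comp59150_c0) and the glutathione S-transferase comp64917_c1.

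Protein names were available only for transcripts that the authors had called in some comparison of these same libraries, 527 of the tested subcomponents, so a direction in a named group is not independent evidence and is read against the named background. Of these 527, 9 were higher (1.71%) and 28 lower (5.31%) by both criteria, 167 were higher (31.7%) and 283 lower (53.7%) by the adjusted p alone, and the median log2 fold change was -0.324. With the groups apart, 138 were higher (26.2%) and 249 lower (47.2%). Examples below with the largest changes were chosen among called ones with groups apart, so for them that separation follows from the choice. In 77 of the 527 (14.6%) less than 50% of the counts at 20 and 25°C lay in contigs that carry a name. Of the other 450, 145 were higher and 237 lower by the adjusted p alone.

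Storage proteins took a large part of the RNA at 20°C and a small one at 25°C. All 4 subcomponents whose main name is basic juvenile hormone-suppressible protein 2, of the hexamerin family, fell by more than 4-fold. Together they held 15.3% ± 0.593 (SD, n = 5) of the estimated counts at 20°C, with a range of 14.66% to 15.98%, and 1.81% ± 0.173 at 25°C, with a range of 1.523% to 1.95%. The groups were far apart, with a ratio of 8.45 between the means. The share was 2.28% at 15.5°C and 0.890% at 28.6°C, so 20°C stood above all other temperatures. It does not count comp56711_c0, a subcomponent named larval serum protein 1 beta chain. In bulk tissue, fewer cells of a type and less RNA per cell cannot be told apart.

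The most abundant of them, comp64679_c1, joins contigs named basic juvenile hormone-suppressible protein 2, arylphorin subunit beta and hexamerin-1.1, the first of which was described in a moth as a storage protein whose mRNA juvenile hormone represses. It stood at 147900, 146300, 158900, 132100 and 154700 CPM in replicates 1 to 5 of 20°C and at 9559, 11770, 10940, 11840 and 11700 CPM in those of 25°C. Every library of 20°C was above every library of 25°C by an order of magnitude. The log2 fold change was -3.73 (SE 0.121, adjusted p = 4.3e-21). Only 0.71% of its counts came from reads that map to a single contig, so it is described by the sum of its contigs alone.

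The second, comp59150_c0, carries the same first name and is a single contig to which 99.85% of its reads map uniquely. Its levels were 36180, 37950, 40290, 34670 and 39420 CPM at 20°C and 4648, 5687, 5740, 6127 and 6019 CPM at 25°C, again with no overlap. It fell by 2.74 on the log2 scale (SE 0.079, adjusted p = 3.2e-22). The remaining members were less abundant. Subcomponent comp64905_c0 had 4413, 4530, 4582, 4202 and 4517 CPM at 20°C and 545.6, 633.7, 514.5, 578.6 and 564.4 CPM at 25°C, for a log2 fold change of -2.97 (SE 0.0845, adjusted p = 2.6e-22). Subcomponent comp64679_c0 had 42.46, 42.36, 48.47, 46.94 and 53.81 CPM at 20°C and 1.129, 0.8596, 0.7291, 0.2483 and 1.337 CPM at 25°C. This was the steepest change of the 4 at -5.40 (SE 0.174, adjusted p = 3.8e-21). At 15.5°C and 28.6°C its means were 0.965 and 1.41 CPM, close to that of 25°C.

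Other proteins that carry lipid or yolk in the blood fell with them. Vitellogenin, the yolk protein precursor that is also made by fat body, was at 24.07, 26.34, 26.42, 24.41 and 20.71 CPM at 20°C and at 0.1026, 0.1433, 0.3646, 0.2483 and 0.4456 CPM at 25°C. It was thus near the limit of detection in all libraries of 25°C and well above it in all of 20°C (log2 fold change -5.61, SE 0.215, adjusted p = 2.2e-19). Its means at 15.5 and 28.6°C were 0.27 and 0.54 CPM. Apolipophorin-3, which helps lipoprotein particles to load lipid, was at 1174, 1235, 1219, 1087 and 1173 CPM at 20°C and at 139.7, 168.3, 126.9, 124.4 and 137.2 CPM at 25°C. The groups did not overlap (log2 fold change -3.08, SE 0.0694, adjusted p = 1.8e-24), and here the level at 15.5°C, a mean of 1435 CPM, was also high while that at 28.6°C was 60.95 CPM. General odorant-binding protein 56d, of a family of small carriers of hydrophobic molecules, was at 38.83, 38.61, 38.9, 28.16 and 36.18 CPM at 20°C and at 5.646, 4.298, 4.861, 4.966 and 6.349 CPM at 25°C. It also fell without overlap (log2 fold change -2.75, SE 0.0932, adjusted p = 1.1e-20). In the list of 6 storage and lipid transport proteins, which by its keywords does not hold the hexamerins named above, 5 fell and 1 did not pass, with a median log2 fold change of -2.09. Vitellogenin and apolipophorin-3 are also the only members that the fat body marker list held by its keywords. Without replicates 1 and 4 of 20°C, vitellogenin dropped below the filter, and the other 5 all fell with a median of -1.44.

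**Figure D2:**
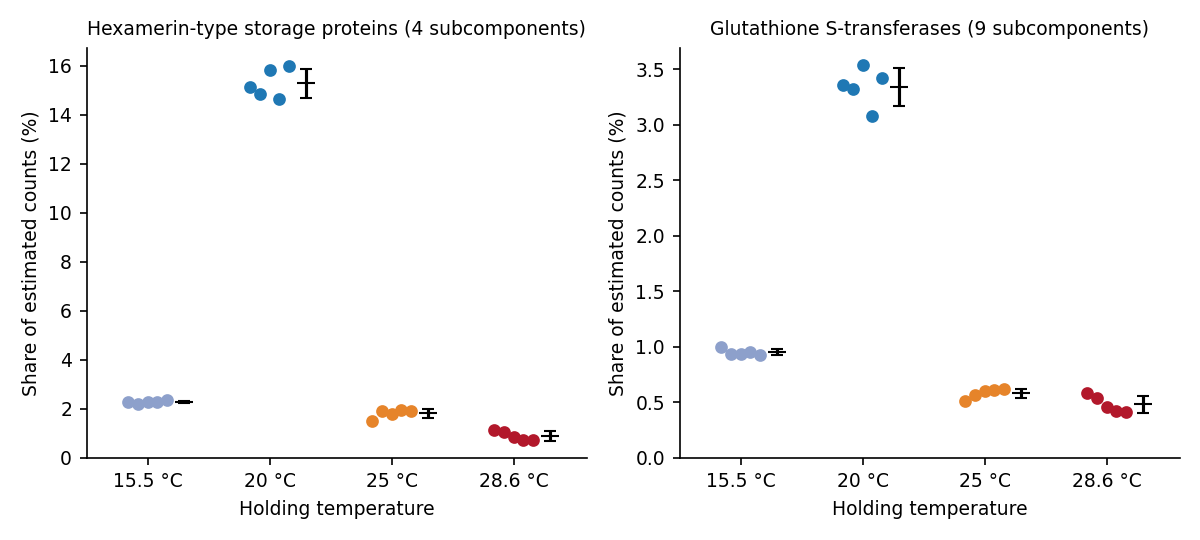
Share of all estimated counts outside the ribosomal-like subcomponent (%) taken by the 4 hexamerin-type subcomponents (left) and the 9 glutathione S-transferases (right), 1 point per library and 5 libraries per temperature, with the mean and SD as bars. In both panels the 5 libraries of 20°C stand above all others, at 14.66% to 15.98% on the left and 3.075% to 3.537% on the right.

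Enzymes that modify or export foreign and hormonal compounds formed the second large group. All 9 glutathione S-transferases, which couple glutathione to reactive compounds, fell by the adjusted p and 3 of them by more than 4-fold, with log2 fold changes from -2.98 to -1.06. They took 3.34% ± 0.171 (SD, n = 5) of the counts at 20°C, with a range of 3.075% to 3.537%, and 0.582% ± 0.0422 at 25°C, with a range of 0.516% to 0.6215%. These groups were apart as well, with a ratio of 5.74 between the means, and the share was 0.950% at 15.5°C and 0.483% at 28.6°C. Levels of comp64917_c1 were 33880, 34400, 36530, 28310 and 34280 CPM at 20°C and 3941, 4286, 4507, 4516 and 4643 CPM at 25°C. Levels of comp60932_c0 were 7248, 7061, 8194, 6890 and 7593 CPM at 20°C and 761.7, 859.7, 1009, 1015 and 1032 CPM at 25°C. Their log2 fold changes were alike, -2.94 for the first (SE 0.0871, adjusted p = 5.3e-22) and -2.98 for the second (SE 0.0869, adjusted p = 4e-22). The transferase comp58392_c0, which the study took forward as a target for its field survey, had far fewer counts and a like log2 fold change. It was at 67.22, 62.25, 65.16, 53.04 and 60.78 CPM at 20°C and at 7.083, 6.017, 7.899, 10.93 and 7.24 CPM at 25°C (log2 fold change -2.95, SE 0.118, adjusted p = 5.9e-19).

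Cytochrome P450s, which oxidise hormones and xenobiotics, went mostly the same way. Of 17, 14 fell and 3 rose, with a median log2 fold change of -1.31, and their summed level went from a range of 2792 to 3087 CPM to one of 1128 to 1172 CPM. In 4 of the 14, which hold 58.2% of the counts of the family, most counts lay in contigs without a name. Cytochrome P450 18a1, whose counterpart in *Drosophila* inactivates ecdysone, was at 70.17, 87.95, 88.83, 69.47 and 83.33 CPM at 20°C. It was at 8.109, 8.596, 12.15, 10.8 and 9.691 CPM at 25°C, all under the lowest library of 20°C. The log2 fold change was -3.01 (SE 0.0962, adjusted p = 3.2e-21), from means of 29.74 CPM at 15.5°C and 4.21 CPM at 28.6°C on either side. The family was not uniform, and the name P450 6j1 stood on both sides of the comparison. Subcomponent comp65329_c0 of that name fell from a mean of 434.7 CPM to 122.3 CPM (log2 fold change -1.83), while comp63388_c6 rose. The latter stood at 3.86, 2.195, 4.214, 2.347 and 3.895 CPM at 20°C and at 17.66, 15.76, 17.86, 16.64 and 15.15 CPM at 25°C. All libraries of 25°C were above those of 20°C (log2 fold change 2.21, SE 0.128, adjusted p = 4.3e-15), and within the longer-read set the value was 1.91. Its means at 15.5 and 28.6°C were 18.27 and 14.1 CPM, so that 20°C was the low temperature and the 3 others were alike. Over the keyword list of detoxification and redox proteins, 37 of 44 fell and 5 rose, with a median of -1.17. That list also took in sphingomyelin phosphodiesterases and a few other hydrolases by their keywords.

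Proteases and digestive enzymes were the third group. By its keywords the list is not limited to digestion, and it also holds serine protease persephone and the pancreatic triacylglycerol lipase described below. Of 57 named proteases and digestive enzymes 49 fell, 5 rose and 3 did not pass, with a median log2 fold change of -1.09 against -0.324 over all named subcomponents. All 20 trypsins and chymotrypsins, serine proteases that cut dietary protein, fell by the adjusted p and 4 of them by more than 4-fold. Their sum lay between 17500 and 21660 CPM at 20°C and between 5985 and 7379 CPM at 25°C, with no overlap. All 4 alpha-amylases and maltases, which release sugar from starch, fell as well. However, 93.5% of their counts belong to comp57321_c0, which had 0% of its counts in contigs with a name.

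Trypsin-7, named after a mosquito protein, was at 66.99, 70.51, 69.21, 68.06 and 66.42 CPM at 20°C and at 7.083, 8.596, 8.871, 8.319 and 7.909 CPM at 25°C. Both groups were tight and far apart (log2 fold change -3.04, SE 0.066, adjusted p = 1.3e-24). Chymotrypsin BI was at 1549, 1757, 1834, 1486 and 1802 CPM at 20°C and at 344.7, 284.7, 299.3, 295.1 and 287.5 CPM at 25°C (log2 fold change -2.48, SE 0.0683, adjusted p = 1.4e-22). At 15.5°C its mean was 282 CPM, close to that of 25°C. Zinc carboxypeptidase A 1, which trims peptides from their end, was at 2790, 3073, 2999, 2753 and 2899 CPM at 20°C and at 722, 614.5, 611.4, 599.6 and 638.2 CPM at 25°C. It fell without overlap too (log2 fold change -2.19, SE 0.0577, adjusted p = 8.2e-23), and missed the fold criterion with library size alone (-1.81) and in the shorter-read set (-1.99). Gut digestive markers overlap this list by name, 28 of the 29 were lower and 1 was higher, and whether less gut tissue or less RNA per gut cell was sampled was not tested.

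Lipases went both ways. Of 12, 10 fell and 2 rose, and these 2 rose by more than 4-fold. Pancreatic triacylglycerol lipase (comp56444_c0), of a family that splits fats, was at 0.6813, 0.5166, 0.1621, 0.4694 and 1.025 CPM at 20°C and at 9.341, 10.17, 11.06, 9.809 and 11.92 CPM at 25°C. All libraries of 25°C were well above those of 20°C (log2 fold change 3.63, SE 0.217, adjusted p = 8.5e-15), and the means at 15.5 and 28.6°C were 1.07 and 1.0 CPM. Inactive pancreatic lipase-related protein 1, a relative that lacks lipase activity in mammals, was at 7.494, 7.619, 7.618, 9.857 and 5.535 CPM at 20°C and at 48.76, 53.72, 66.47, 57.98 and 57.37 CPM at 25°C. It rose without overlap (log2 fold change 2.95, SE 0.118, adjusted p = 5.7e-19), from 4.8 CPM at 15.5°C and with 19.39 CPM at 28.6°C.

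Among the 12 immune proteins, 7 fell and 5 rose, not far from the 53.7% lower and 31.7% higher of all named subcomponents. All 4 lysozymes and peptidoglycan recognition proteins fell. Peptidoglycan-recognition protein 2, which binds bacterial cell wall, was at 641.1, 679.8, 713.5, 646.3 and 646.2 CPM at 20°C and at 142.2, 149.1, 173.3, 168.1 and 165.7 CPM at 25°C. The groups were apart and the change was just past the fold criterion (log2 fold change -2.06, SE 0.0609, adjusted p = 5.2e-22), which it missed with library size alone (-1.68) and without the filter (-1.97). The recognition protein LB, which degrades cell wall fragments in *Drosophila*, went from a mean of 502.1 to 177.1 CPM (log2 fold change -1.5). The lysozymes comp56573_c0 and comp54048_c0 changed by -1.44 and -1.54 on the log2 scale. Serine protease persephone, which in *Drosophila* senses microbial proteases upstream of Toll, was at 999.4, 976.7, 999.6, 919.9 and 990.1 CPM at 20°C and at 233.9, 206.7, 179.4, 168.9 and 200.5 CPM at 25°C. Its log2 fold change was -2.30 (SE 0.0612, adjusted p = 8.2e-23), but with reads that map to a single contig only it was -0.50. The 3 phenoloxidases, which catalyse melanin formation and also serve as hemocyte markers, rose by 0.17 to 0.45 on the log2 scale, with a summed level of 336.5 to 351.9 CPM at 20°C and 367 to 429.9 CPM at 25°C. The rise of subunit 2 did not pass without replicate 5 of 20°C (0.34, adjusted p = 0.0693), nor did that of a subunit A3 (0.20, adjusted p = 0.0571). Within the longer-read set, where replicate 3 is the only library of 20°C, the changes were 0.31 and 0.17.

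Of 17 named proteins of the cuticle and chitin list, 12 fell, 3 rose and 2 did not pass. All 7 larval cuticle and endocuticle proteins, structural proteins of the exoskeleton, fell without overlap between libraries, with log2 fold changes from -1.57 to -0.40. Their sum went from between 2846 and 3295 CPM to between 1138 and 1366 CPM. Cuticle protein 6 (comp58123_c0) rose without overlap (log2 fold change 1.89, SE 0.132, adjusted p = 3.6e-13), and a second of that name (0.22, adjusted p = 0.0799) and cuticle protein 8 (-0.15, adjusted p = 0.658) did not pass. Peritrophins, which bind chitin in the lining of the gut, went from -2.12 for a peritrophin-1 to 1.14 for peritrophin-48. A probable chitinase 3 (comp64787_c0), of the enzymes that break down old cuticle at a moult, rose from a mean of 29.53 to 70.57 CPM (log2 fold change 1.27), with 13% of its counts in the contig of that name. Another of the same name (comp64069_c1), with 6.28% of its counts in contigs with a name, fell by 0.29. All 6 of the muscle and sarcomere list fell, with a median of -0.72, and 2 of them (titin and muscleblind) have less than 50% of their counts in named contigs. Troponin I, a regulator of contraction, went from 192.4 to 122.1 CPM (log2 fold change -0.66), myosin light chain kinase from 95.74 to 33.2 CPM (-1.51) and the muscle fatty acid-binding protein from 754 to 281.8 CPM (-1.42). Muscle-specific protein 20 changed by -0.61 from all reads and by 0.06 from reads of a single contig, so its direction depended on how shared reads were divided. Without replicates 1 and 4 of 20°C, 5 of the 6 fell and the median was -0.65. The troponin subcomponent that the study used as a reference (comp62634_c1) went the other way, from a mean of 3161 to 3882 CPM (log2 fold change 0.30, adjusted p = 0.00011). The part of the amount of muscle in these values was not tested.

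Other named subcomponents that fell by more than 4-fold had varied roles. Epididymal secretory protein E1, of a family of sterol carriers, was at 148.1, 153.7, 145.9, 109.4 and 130 CPM at 20°C and at 23.81, 20.06, 14.7, 14.65 and 11.7 CPM at 25°C. All of 25°C lay below all of 20°C (log2 fold change -3.01, SE 0.115, adjusted p = 2.1e-19). Axonemal dynein heavy chain 5, a motor of cilia and sperm tails, was at 35.43, 35.38, 40.04, 42.24 and 37.41 CPM at 20°C and at 2.874, 2.435, 3.038, 2.856 and 3.23 CPM at 25°C. Its log2 fold change of -3.60 (SE 0.116, adjusted p = 3.8e-21) became -1.24 with reads of a single contig, which are 3.83% of its reads. Of 27 transporters 13 were lower and 6 higher, against 53.7% lower and 31.7% higher among all named subcomponents. Their median log2 fold change of -0.30 was near the -0.324 of that background. Facilitated trehalose transporter Tret1 (comp63446_c0), which moves the blood sugar of insects, went from 425.4 to 176.5 CPM (log2 fold change -1.27), and an aquaporin, a water channel, from 346.6 to 154.4 CPM (-1.17).

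In lipid metabolism 9 of 10 enzymes fell and 1 rose, with a median log2 fold change of -0.93, against 53.7% lower and 31.7% higher among all named subcomponents. Carbohydrate metabolism, with 7 of 11 lower, 2 higher and a median of -0.61, was nearer to that background. Putative phospholipase B-like 2, a lysosomal hydrolase, was at 93.33, 102, 89.96, 85.42 and 95.94 CPM at 20°C and at 47.94, 42.55, 41.56, 42.09 and 46.78 CPM at 25°C. The groups were apart (log2 fold change -1.08, SE 0.0607, adjusted p = 2e-15). Mitochondrial enolase superfamily member 1, which in mammals is a sugar acid dehydratase, was at 209.8, 212.3, 219.8, 189.6 and 204.2 CPM at 20°C and at 82.12, 68.05, 72.67, 61.71 and 71.51 CPM at 25°C (log2 fold change -1.54, SE 0.061, adjusted p = 4.9e-19). Amino acid metabolism was close to it, with 6 of 12 lower and 5 higher and a median of -0.26. Alanine-glyoxylate aminotransferase 2, which passes the amino group of alanine to glyoxylate, was at 33.38, 32.54, 38.42, 23.94 and 29.93 CPM at 20°C and at 8.93, 9.312, 8.871, 8.07 and 8.911 CPM at 25°C. It fell without overlap (log2 fold change -1.84, SE 0.0997, adjusted p = 8.3e-16), with means of 6.947 CPM at 15.5°C and 3.892 CPM at 28.6°C. 4-aminobutyrate aminotransferase, which breaks down the transmitter GABA, went from 253.1 to 83.64 CPM (-1.60), yet by -0.08 (adjusted p = 0.857) from unique reads, which are 1.508% of its reads.

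Proteins of secretion and energy supply are among the targets of the field survey. Translocon-associated protein subunit beta, part of the gate through which secreted proteins enter the endoplasmic reticulum, was at 123.8, 145.2, 135.7, 124.9 and 122.1 CPM at 20°C and at 41.78, 35.53, 33.54, 35.76 and 35.42 CPM at 25°C. It fell without overlap (log2 fold change -1.83, SE 0.0776, adjusted p = 2.2e-18) after a mean of 183.7 CPM at 15.5°C. The ATPase inhibitor mai-2, which restrains ATP hydrolysis by the mitochondrial synthase, was at 76.75, 73.61, 65.65, 61.96 and 72.37 CPM at 20°C and at 122.3, 128.7, 115.4, 119.8 and 121 CPM at 25°C. All libraries of 25°C were higher (log2 fold change 0.78, SE 0.0744, adjusted p = 3.5e-10), between means of 32.29 CPM at 15.5°C and 228.2 CPM at 28.6°C. Of 10 proteins of the extracellular matrix and adhesion, 8 fell and 1 rose. A collagenase (comp64589_c1), named after a protease that cuts collagen, was at 1006, 1085, 1159, 919.9 and 1070 CPM at 20°C and at 397.7, 316.2, 387.5, 356.5 and 363.1 CPM at 25°C (log2 fold change -1.52, SE 0.0582, adjusted p = 1.9e-19). The contig of that name held 69.9% of its counts, and others were named chymotrypsin BI and transmembrane protease serine 3. The list took in this protease, and comp55333_c0 of the same name, by keyword.

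**Figure D3:**
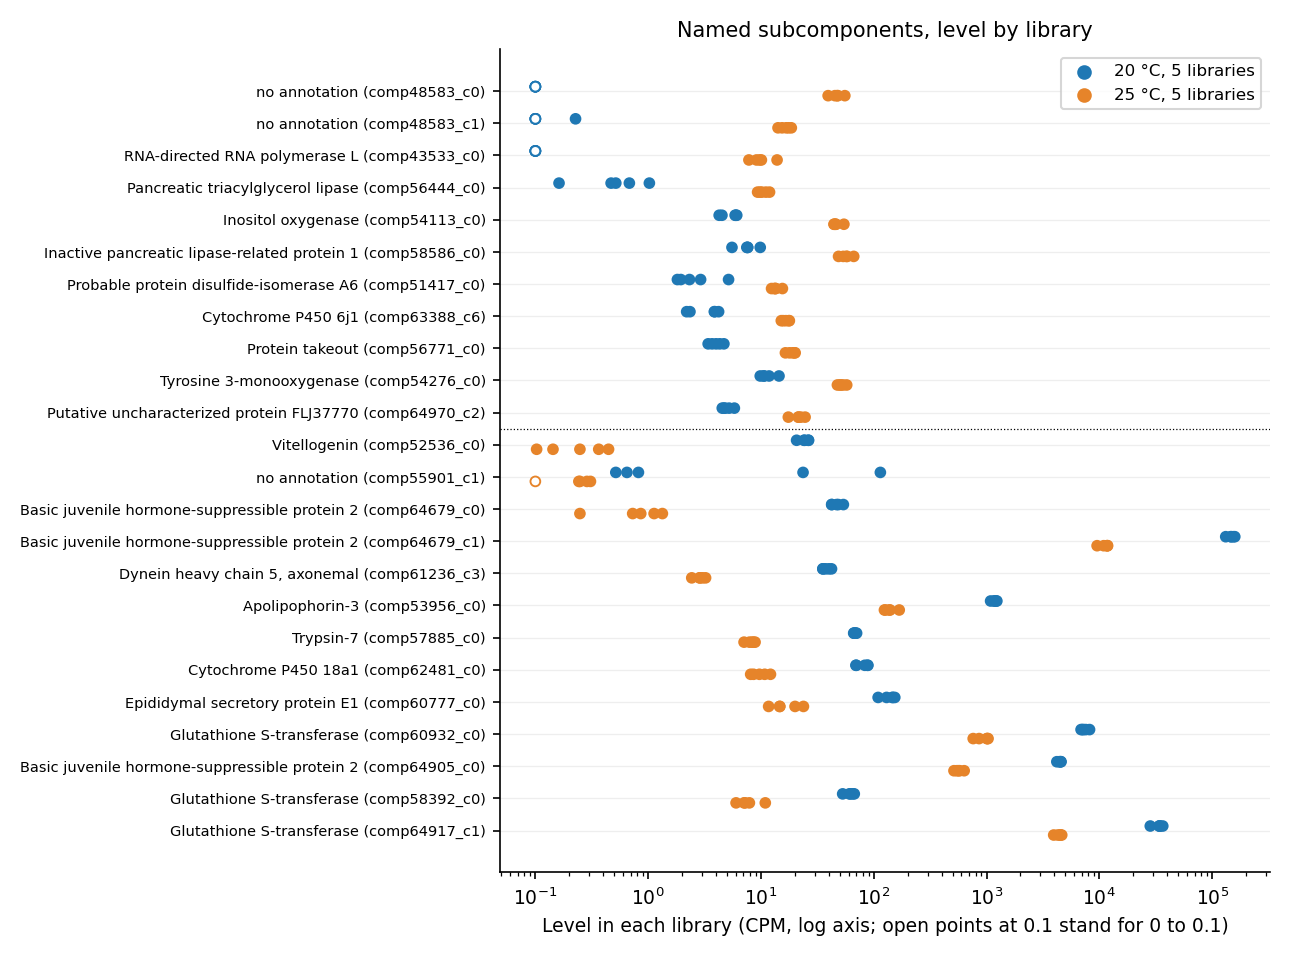
Level in each library (CPM, log axis) of named subcomponents chosen by their fold change, with 5 libraries of 20°C in blue and 5 of 25°C in orange, and open points at 0.1 for values from 0 to 0.1. Above the dotted line are those higher at 25°C and below it those lower at 25°C. Only subcomponents whose libraries did not overlap were eligible, so the colours are separate on every line by choice. Subcomponent comp55901_c1 shows replicates 1 and 4 of 20°C far to the right of the other 3.

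The 9 named subcomponents that rose by more than 4-fold had varied roles, and 3 of them (both lipases and P450 6j1) are given above. Inositol oxygenase, which opens the ring of myo-inositol, was at 5.904, 4.262, 5.997, 6.102 and 4.51 CPM at 20°C and at 54.4, 44.41, 44.72, 45.94 and 46.23 CPM at 25°C. All libraries of 25°C were above those of 20°C by a wide margin (log2 fold change 3.15, SE 0.102, adjusted p = 4.2e-21). Its means were 14.25 CPM at 15.5°C and 9.14 CPM at 28.6°C, so 20°C was the lowest and 25°C the highest of the 4. Tyrosine 3-monooxygenase, the rate-limiting enzyme of dopamine synthesis, was at 11.81, 14.46, 10.7, 9.857 and 10.56 CPM at 20°C and at 47.63, 50.14, 57.6, 53.51 and 51.24 CPM at 25°C. It rose without overlap (log2 fold change 2.13, SE 0.0863, adjusted p = 7.6e-19, and 1.97 within the shorter-read set) and stood at 33.34 CPM at 15.5°C and 90.98 CPM at 28.6°C.

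Protein takeout, which in *Drosophila* links the circadian clock with feeding, was at 4.315, 4.003, 3.404, 4.694 and 3.69 CPM at 20°C and at 19.2, 16.48, 19.81, 20.11 and 17.93 CPM at 25°C. The groups were apart (log2 fold change 2.20, SE 0.114, adjusted p = 3.2e-16). Probable protein disulfide-isomerase A6, which forms disulfide bonds in the endoplasmic reticulum, was at 1.817, 2.325, 2.918, 5.163 and 1.948 CPM at 20°C and at 15.5, 13.47, 13.12, 12.42 and 13.48 CPM at 25°C. Replicate 4 was the highest of 20°C but still under all of 25°C (log2 fold change 2.35, SE 0.180, adjusted p = 3e-12). The uncharacterized FLJ37770 was at 5.223, 5.811, 4.539, 4.694 and 4.818 CPM at 20°C and at 24.64, 21.49, 22.6, 21.48 and 17.49 CPM at 25°C, just past the fold criterion at 2.04 (SE 0.121, adjusted p = 8.2e-15). It was at or under the criterion without replicate 3 of 20°C (2.0) or replicate 1 of 25°C (1.98).

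Some transcripts were at or near 0 outside 25°C. RNA-directed RNA polymerase L (comp43533_c0) is named after the replication enzyme of a plant rhabdovirus at 24.46% identity, and it was at 0 in all libraries of 20°C as well as 15.5 and 28.6°C. At 25°C it was at 9.752, 13.9, 10.09, 7.822 and 9.134 CPM. It was at least 15.5-fold higher at 25°C, taking 3 counts per library as the floor at 20°C (adjusted p = 3.4e-11). A second subcomponent of that name, comp64303_c0, was present at all temperatures and did not pass (17.8 and 14.9 CPM at 20 and 25°C, log2 fold change -0.08). Only 17.7% of its counts lay in contigs with a protein name. The subcomponent with the largest fitted change, comp48583_c0, has no protein name. It was at 0 in the 5 libraries of 20°C and at 39.42, 55.44, 48, 47.55 and 45.34 CPM at 25°C, at least 72.1-fold higher by the same floor (adjusted p = 4.3e-21). Outside these temperatures it was at 0.06236 and 0.1089 CPM in 2 libraries of 15.5°C, at 0.1171 CPM in 1 of 28.6°C and at 0 in the rest. Its neighbour in the assembly, comp48583_c1, was at 0.2271 CPM in replicate 1 and at 0 in the other libraries of 20°C. At 25°C it was at 14.17, 16.76, 18.59, 15.4 and 17.6 CPM (adjusted p = 4.1e-15). Because the larvae of a temperature were pooled, such presence cannot be told apart from presence in a single larva.

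Chaperones rose over this step by amounts that were small beside those at 28.6°C. Of 31 chaperones and heat shock proteins 21 rose, 2 fell and 8 did not pass, with a median log2 fold change of 0.27. In 1 of the 2 that fell (comp64140_c1) the fall lay mainly in a contig without a protein name. Named subcomponents rose in 31.7% of cases over the whole named set, with a median of -0.324. Levels at 15.5°C differed between chaperones. At 15.5, 20 and 25°C the median summed level of 6 T-complex subunits was 1079, 454.4 and 521.3 CPM. It was 1778, 2111 and 2874 CPM for small heat shock proteins and 4237, 3558 and 5640 CPM for the Hsp70 family. Within that family, Hsp70 cognate 3 had means of 1229, 367.4 and 406 CPM. Among the small heat shock proteins, 4 of 7 rose, and the sum went from between 2006 and 2166 CPM to between 2794 and 2949 CPM, against 26290 to 28340 CPM at 28.6°C. Protein lethal(2)essential for life, a small heat shock protein, was at 216, 252.6, 241.7, 215.9 and 237.4 CPM at 20°C and at 710.8, 609.6, 754, 700.3 and 704.4 CPM at 25°C. The groups were apart (log2 fold change 1.57, SE 0.0543, adjusted p = 1.6e-20), on the way from a mean of 45.96 CPM at 15.5°C to 3068 CPM at 28.6°C. Heat shock protein 23 was at 183, 198.6, 210.1, 181.2 and 197.3 CPM at 20°C and at 442.8, 410.6, 482.9, 442.3 and 454.4 CPM at 25°C, also without overlap (1.2, SE 0.0475, adjusted p = 5e-19).

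Of 9 members of the Hsp70 family 6 rose, 1 fell and 2 did not pass, and the fall of the 1 lies mainly in a contig without a protein name. Heat shock protein 83, the insect Hsp90, was at 873.8, 906.8, 881.5, 842.5 and 851.1 CPM at 20°C and at 1715, 1708, 1646, 1617 and 1657 CPM at 25°C (log2 fold change 0.94, SE 0.0403, adjusted p = 3.2e-18). Its level at 28.6°C was 13920 CPM. Only 0.0073% of its reads map to a single contig, and from these the change was 0.49 and did not pass (adjusted p = 0.235). The constitutive Hsp70 cognate 4 was at 2603, 2548, 2505, 2297 and 2493 CPM at 20°C and at 4775, 4557, 4349, 4496 and 4579 CPM at 25°C. It rose without overlap (log2 fold change 0.87, SE 0.0408, adjusted p = 2.8e-17) and reached 20590 CPM at 28.6°C. The subcomponent named after the stress-inducible Hsp70 B2, comp64140_c1, fell by 0.29 on the log2 scale (SE 0.0498, adjusted p = 1.4e-05), but 91.5% of its counts lie in contig seq5, which has no protein name and went from a mean of 230.8 to 190.6 CPM. The fall of the sum lies in contigs without a protein name, mainly this one, and what they encode was not tested. The contigs named for Hsp70 held 1.13% of the counts, were under 2 CPM at both temperatures and stood at 71.96, 810.5 and 476.5 CPM at 28.6°C. The contig named Hsp70 B2, which the study followed, rose from a mean of 0.2936 to 1.774 CPM (log2 fold change 1.69, SE 0.401, adjusted p = 0.0043) and stood at 810.5 CPM at 28.6°C, but the rise did not pass within the shorter-read set (adjusted p = 0.0938) or from unique reads (0.26, adjusted p = 0.483).

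Proteins named for transcription or RNA binding rose more often than they fell. In that list 17 of 32 rose and 7 fell, with a median log2 fold change of 0.36. Among all named subcomponents 31.7% rose and 53.7% fell. The list includes the viral polymerase and a transposon polymerase by name. In 8 of the 32 less than 50% of the counts lay in contigs with a name, and of the other 24, 14 rose and 4 fell. Among 12 zinc finger proteins, most of which bind nucleic acid, 10 rose and 1 fell. In 2 of the 10, which hold 73.6% of the counts of the group, most counts lay in contigs without a name. A homeobox protein named Hox-A1 fell, from 91.75 to 40.9 CPM (log2 fold change -1.17). Mitochondrial proteins were mixed, with 13 of 25 lower and 6 higher and a median of -0.50. The share that fell was close to the 53.7% of all named subcomponents. The hormone and circadian list holds the 4 hexamerins by the words juvenile hormone in their name, and these are the 4 of its 11 members that fell by more than 4-fold. Leaving out replicates 1 and 4 of 20°C gave 18 higher and 2 lower chaperones, 5 and 48 proteases, 5 and 35 detoxification proteins and 17 and 6 transcription proteins. Within the longer-read libraries these counts were 15 and 2, 4 and 47, 4 and 33, and 15 and 6, and within the shorter-read ones 13 and 0, 3 and 42, 5 and 31, and 13 and 5.

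**Figure D4:**
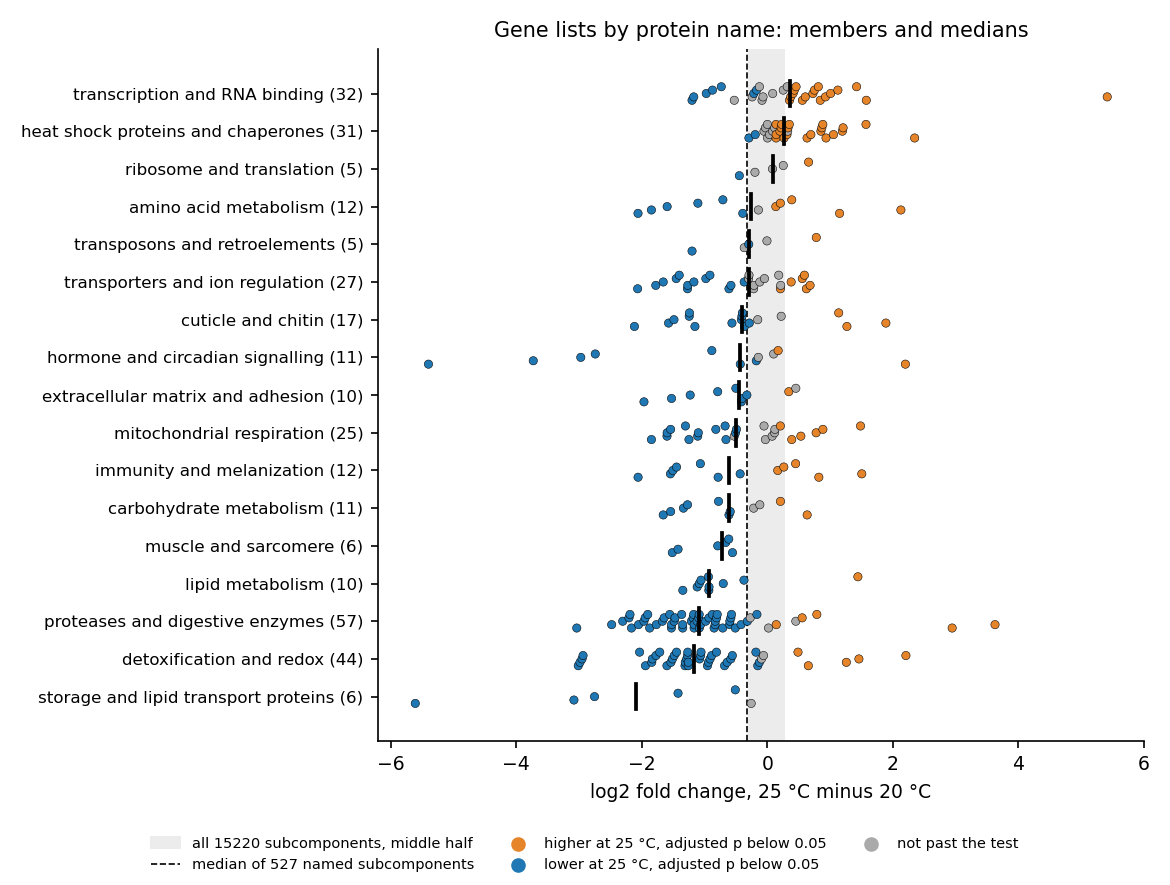
Log2 fold change, 25°C minus 20°C, of the members of 17 lists made from protein names, with the number tested in parentheses and the median as a black bar. Grey shading spans the quartiles of all 15220 subcomponents and the dashed line is the median of the 527 named ones (-0.324). Medians run from -2.09 for storage and lipid transport proteins to 0.36 for transcription and RNA binding, and proteases (-1.09) and detoxification proteins (-1.17) lie left of the dashed line.

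Contigs told a finer and noisier account. Of 30413 contigs 460 were higher (1.51%) and 527 lower (1.73%) by both criteria, the adjusted p alone was passed by 3332 (11%) and 3487 (11.5%), and the libraries were apart for 9.15% of contigs upwards and 8.5% downwards. The subcomponent of the contig was called in the same direction for 67 of the 460 and 151 of the 527, it was not called for the others, and it was called in the opposite direction for none. For 347 and 407 of them the subcomponent passed the adjusted p in the same direction. Reads that map to several contigs are divided by an estimate, so a shift between contigs of a subcomponent can be a shift in that division.

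A subcomponent can also join contigs of unlike proteins. Of the subcomponents with tested contigs, 34 held more than 1 protein name, and in 3 of them contigs of different names went in opposite directions. In comp64492_c0, contigs named protein henna, the insect phenylalanine hydroxylase that makes tyrosine, rose, while contigs named apolipoprotein D, a lipid-binding lipocalin, fell. The henna contig that the study followed was at 44.49, 45.55, 47.33, 34.53 and 44.54 CPM at 20°C and at 253.1, 235.2, 234.5, 246 and 212.9 CPM at 25°C (log2 fold change 2.43, SE 0.097, adjusted p = 8.9e-13). The other henna contig was at 13.85, 18.97, 21.18, 17.72 and 17.3 CPM at 20°C and at 89.46, 69.4, 91.63, 87.11 and 104.4 CPM at 25°C (2.29, SE 0.148, adjusted p = 8.1e-10). Neither overlapped between temperatures.

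The apolipoprotein D contigs of the same subcomponent showed the reverse. The steeper one was at 45.17, 70.07, 62.74, 44.07 and 65.98 CPM at 20°C and at 0.3114, 0.8621, 0.2434, 0.3744 and 0.2239 CPM at 25°C (log2 fold change -6.52, SE 0.454, adjusted p = 2.2e-09). It was as low at 15.5°C (a mean of 0.932 CPM) and at 28.6°C (0.9288 CPM), so it was abundant at 20°C alone. The other went from a mean of 26.18 to 8.942 CPM (-1.52, SE 0.098, adjusted p = 7.2e-10). Summed, the subcomponent rose from 148.8 to 333.8 CPM (log2 fold change 1.15), which describes neither protein. No read mapped to a henna contig alone, whereas 52% and 54.6% of the reads of the apolipoprotein D contigs were unique, and from unique reads the sum changed by -2.81.

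**Figure D5:**
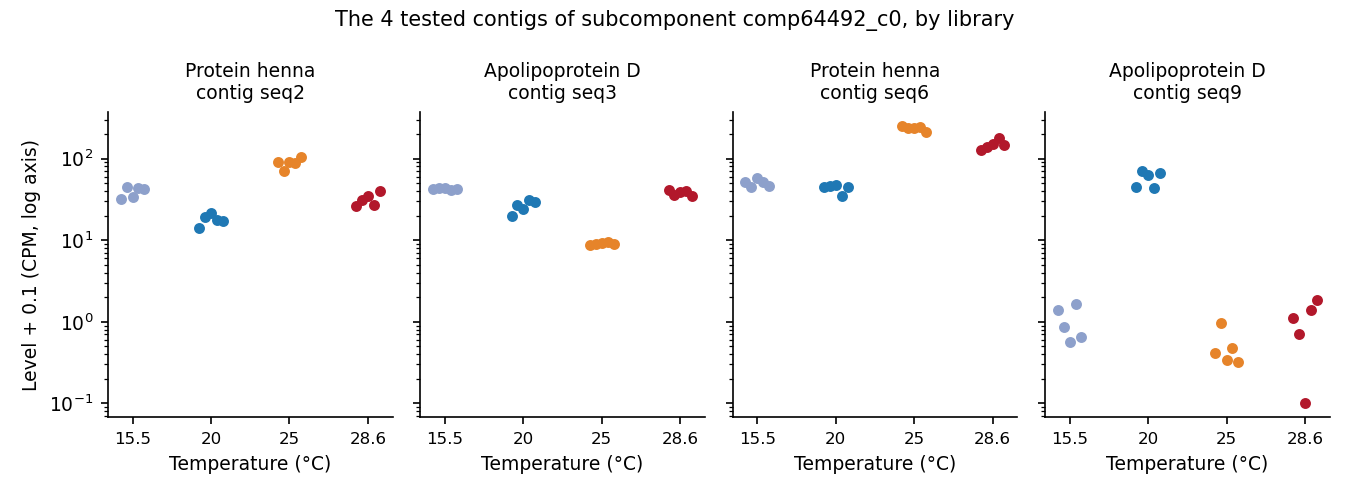
Level plus 0.1 (CPM, log axis) of the 4 tested contigs of comp64492_c0 at the 4 temperatures, 1 point per library. The henna contigs (seq2 and seq6) are highest at 25°C, with means at 20 and 25°C of 43.29 and 236.3 CPM for seq6, and the apolipoprotein D contig seq9 is above 40 CPM only at 20°C.

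The study took 31 transcripts forward as targets for its field survey, chosen from these same libraries. Over the step from 20 to 25°C, 12 of their subcomponents rose, 14 fell and 5 did not pass, and only the glutathione S-transferase above met the fold criterion, with a median log2 fold change of -0.142. Of the 30 target contigs tested, 10 rose, 12 fell and 8 did not pass, and henna and the transferase met the fold criterion. Xanthine dehydrogenase, which makes uric acid, rose from 384.8 to 607 CPM (log2 fold change 0.66), and alpha-amylase A fell from 454.7 to 278.4 CPM (-0.71). The 3 reference transcripts had contig log2 fold changes of -0.21 (elongation factor 1B), -0.16 (troponin) and -0.18 (a transcript named as unknown), none past the adjusted p. Summed per subcomponent they were -0.23, 0.30 and -0.23, all past it, although the first did not pass without replicate 1 or 2 of 20°C or replicate 3 or 4 of 25°C (adjusted p from 0.0521 to 0.0796).

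The neighbouring steps share libraries with this one, so their values are given side by side only. The change from 20 to 25°C was set against the mean of the changes from 15.5 to 20°C and from 25 to 28.6°C in the same fit. It was more positive than that mean for 2324 subcomponents (15.3%) and more negative for 2810 (18.5%). For the hexamerin-type comp64679_c1 the difference was -4.78 on the log2 scale (SE 0.184, adjusted p = 7.4e-19) and for inositol oxygenase it was 5.04 (SE 0.161, adjusted p = 1.3e-20). For protein lethal(2)essential for life it was -0.67 (SE 0.0845, adjusted p = 1.8e-07) although the protein rose, since the neighbouring steps were larger on average. For alpha-amylase A it was 0.03 (SE 0.0951, adjusted p = 0.861), where neighbouring changes of 0.58 and -2.05 average near its own -0.71.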

How the data were processed

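Thorax RNA was sequenced in 20 libraries of 4 temperatures. According to the submitters' processing notes, reads were trimmed with Trim Galore 0.3.0, mapped to the assembly with Bowtie2 2.0.6 and counted with eXpress 1.5.1, and the authors tested them with edgeR 1.2.4. Their assembly held 135858 contigs in 79613 subcomponents. The estimated count, deposited by the authors for each contig, shares out a read that fits several contigs by its probabilities, and the unique count in the deposited files is the number of reads that map to a single contig. The log2 values in the deposited table of called transcripts, made by the authors from their own comparisons, were not used, and only its protein names were taken. No column was left unread (0), and the run parameter files served to find the longest read position.

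Estimated counts were summed per subcomponent and rounded, without the ribosomal-like comp65386_c0 (10 contigs). The filter asked for 2 CPM or more in 4 or more of the 20 libraries, and TMM factors were used. Analyses ran in R 4.3.3 with edgeR 4.0.16 and limma 3.58.1. A quasi-likelihood fit of all 20 libraries with a coefficient per temperature gave each contrast, and fold changes used a prior count of 2. Benjamini-Hochberg adjustment ran over all features. Called features had an adjusted p below 0.05 and a ratio of 4 or more, or 0.25 or less. Tables used Python 3.11.15, numpy 2.4.6, pandas 2.3.3 and scipy 1.17.1, and figures used matplotlib 3.10.9. The depth of each library limits precision, since a level of 2 CPM is a few reads in the shallowest.

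Named subcomponents were the 12 highest and 12 lowest changes among annotated, called ones whose libraries did not overlap and whose mean was 5 CPM or more, the 2 highest and 2 lowest with or without a name, up to 4 of each list by adjusted p, the 31 targets and 3 references, and the 3 most abundant with contigs called both ways. Members and lists were chosen with earlier results of these data known. Families by name and examples outside this rule were picked with their values in view. No pair of libraries at a temperature agreed within sampling noise (chi-square per degree of freedom of 1.36 or more). The fits were tested on simulated data.

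Alternatives were DESeq2 1.42.0, edgeR's likelihood ratio test, scaling by RLE factors or by library size alone, other filters, the ribosomal-like subcomponent kept, each library left out, replicates 1 and 4 of 20°C left out, the 10 libraries alone, the replicate number as a block, the read-length set as a covariate or alone, effective and unique counts, a test against 2-fold and the adjusted p alone. The field survey is not analysed here.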

Additional observations from a re-analysis of the deposited data

Results flagged for a closer look

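Among 160 sets of 5 libraries behind the values named above, 12 had a library far from the others by Dixon's ratio (above 0.71), and chance gives about 1 in 20. At 20°C replicate 4 stood apart for comp55901_c1 (114.5 CPM, others 0.5166 to 23.62), serine protease persephone (919.9 CPM, others 976.7 to 999.6), the muscle fatty acid-binding protein (666 CPM, others 767.7 to 788.8), general odorant-binding protein 56d (28.16 CPM, others 36.18 to 38.9), the subcomponent named AN1-type zinc finger protein 5 (0.0648% of its counts in the contig of that name, 161.9 CPM, others 188 to 191.4) and the hemocyte markers (0.03005% of counts, others 0.027% to 0.0277%). It is the library with 77.0% ribosomal-like counts, and the part of that in these values was not tested. Replicate 1 of 20°C held 0.2271 CPM of comp48583_c1, which was at 0 in the others. At 25°C replicate 1 stood apart for inositol oxygenase (54.4 CPM, others 44.41 to 46.23), chymotrypsin BI (344.7 CPM, others 284.7 to 299.3) and translocon-associated protein subunit beta (41.78 CPM, others 33.54 to 35.76), replicate 2 for myosin light chain kinase (43.41 CPM, others 29.18 to 31.51) and replicate 5 for comp55901_c1 (0 CPM, others 0.243 to 0.3079).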

How the results depend on the processing

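Of 30 subcomponents past both criteria and named above, 737 values under alternatives were computed, of which 722 stayed past both and 15 kept their direction but missed one, with none reversed. Of 1066 such values for 43 other named results, 1041 kept direction and side of the threshold. Reversed were muscle-specific protein 20 (0.06) and the henna subcomponent (-2.81) with unique counts, and the subcomponent named Hsp70 B2 (0.08), the elongation factor 1B reference comp51037_c0 (0.15) and the troponin contig (0.20) with library size alone, where the median of all subcomponents is 0.354. The causes were not tested.

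The 61 higher subcomponents became 33 in the shorter-read set alone, 174 with effective counts, 167 against a 2-fold change and 3255 by adjusted p alone. The 126 lower ones became 250 without the filter, 72 without replicates 1 and 4 of 20°C, 56 in the longer-read set, 281 with effective counts, 348 against a 2-fold change and 3627 by adjusted p alone. The 460 higher contigs became 786 with library size alone (371 lower), 169 in the shorter-read set, 126 with unique counts and 3332 by adjusted p alone. The 527 lower contigs became 338 with the 10 libraries alone, 281 and 242 in the shorter- and longer-read sets, 217 with unique counts and 3487 by adjusted p alone. In each read-length set a temperature has 1 library, assumed to vary like the others. The comparison of steps went from 2324 and 2810 to 8899 and 771 with library size alone, and 2810 became 1640 with unique counts. DESeq2 called 81 and 153 subcomponents and 677 and 694 contigs. Leaving out each library gave 55 to 65 higher and 115 to 128 lower subcomponents, 428 to 512 and 478 to 530 contigs, and 2105 to 2233 and 2599 to 2798 for the comparison of steps.

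With the replicate number as a block, 60 subcomponents were higher and 127 lower, and 463 and 484 contigs. Same-numbered libraries correlated between temperatures at 0.323, -0.053, 0.141, -0.177 and 0.254. Of the 5 pairs, 3 were above 0.1, and only for replicate 1 was the same number the best match. No pairing was used in the main fit, and these values do not settle whether the numbers pair the libraries. The depth limits values near 2 CPM, and unnamed contigs were described only where their change was among the largest.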
